A study of Mus musculus with 22 samples.

Results

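The genes of cholesterol synthesis, sensing and transport were followed in mouse TH2 cells, CD4+ T cells polarized in vitro toward the programme of Il4 and Il13, after treatment with calcitriol, the active form of vitamin D. The set holds 27 genes, listed by symbol for their known roles in this pathway, and all 27 were found with 1 row each among the 49671 genes of the count table. By role they are 19 synthesis enzymes, 4 genes of sterol sensing and 4 of sterol transport and storage. The cells came from wild-type Balb/c mice of both sexes, supplied at 6 to 8 weeks of age and bred for 2 generations on diets with 400, 1000 or 4000 IU of vitamin D3 per kg. RNA was taken at day 5 of polarization to give 11 libraries of cells that had received 100 nM calcitriol for the last 24 hours and 11 of cells that had received 2% ethanol, the vehicle. The labels give no mouse, sex, diet or culture for a single library, and do not say whether the calcitriol cultures also held ethanol. Nothing says that the libraries came from separate animals or cultures, so the p-values reflect only how these libraries spread, and some of that spread may be technical.

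Cholesterol is built from acetyl-CoA by way of mevalonate, isoprenoid units, squalene and lanosterol. When sterol in the endoplasmic reticulum runs low, Scap carries the transcription factor SREBP-2, the product of Srebf2, to the Golgi for cleavage, and SREBP-2 then activates most genes of the pathway. Insig proteins hold Scap back when sterol is plentiful. Dividing T cells draw on this pathway for membrane, and its last steps pass through 7-dehydrocholesterol, which is also the precursor of vitamin D3 in skin.

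Total counts ran from 3214171 to 20258430 per library with a median of 7504710, and 11905 genes passed a filter on low counts, all 27 sterol genes among them. Levels are given as CPM, a gene's count relative to its library's total after TMM scaling. Log2 changes are calcitriol over vehicle from edgeR's quasi-likelihood test. That test gives no standard error, so the size of the log2 change was divided by the square root of its F statistic. A gene was called at a Benjamini-Hochberg adjusted p under 0.05 over all genes tested. Cyp24a1, the enzyme that inactivates calcitriol, was counted in no vehicle library and in every calcitriol library, where it ran from 16.6 to 75.7 CPM. Vdr, the calcitriol receptor gene, fell by 1.73 on the log2 scale (edgeR, adjusted p = 0.000122). The 6 marker genes of T cells summed to 1541 to 1779 CPM in vehicle and 1437 to 1636 in calcitriol libraries. Among them Cd3d and Cd3e rose by 0.35 and 0.20 on the log2 scale, Cd4 fell by 0.13 and Il13 by 0.72, and Gata3 and Il4 were not called. Markers of macrophages, NK cells, mast cells and basophils, erythroid cells and B cells summed to at most 2.95 CPM in any library, with Ncr1 and Hba-a1 at 0 in both groups. Markers of CD8 T cells reached at most 9.53 CPM and those of dendritic cells 10.4, among which Zbtb46 fell by 0.90 on the log2 scale. The epithelial and stromal pair Epcam and Col1a1 summed to 6.17 to 17.1 CPM in vehicle and 16.4 to 33.0 CPM in calcitriol libraries, nearly all of it Epcam, which rose by 1.19 on the log2 scale (edgeR, adjusted p = 6.91e-07). Col1a1 stayed below 0.421 CPM in every library. The part of these marker changes in the results on sterol genes was not tested.

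Calcitriol lowered 4 of the 27 sterol genes and raised 2. Dhcr7, Pmvk, Hsd17b7 and Stard4 fell, Npc1 and Npc2 rose, and 21 were not called. Among all genes tested, 31.5% were called, 16.1% as higher and 15.5% as lower, so the shares of 22.2% called and 14.8% lower among the sterol genes were no larger than the background. By step, 20% of 5 mevalonate, 0% of 3 isoprenoid and 0% of 3 squalene-to-lanosterol enzymes were called. The shares were 25% of 8 enzymes from lanosterol to cholesterol, 0% of 4 sensing genes and 75% of 4 transport and storage genes. With 3 to 8 genes in a step, these shares say little beside the background. In no sterol gene were the groups free of overlap, against 4.36% of all genes tested. The median log2 change of the 27 genes was -0.06 and that of all genes tested -0.01. Values below 0 were found for 19 of the 27 sterol genes (70.4%) and for 52.1% of all genes tested. When libraries were scaled by their totals alone, the calls over all genes shifted from 1911 higher and 1844 lower to 1319 higher and 2878 lower, and the median change of all genes from -0.01 to -0.08. Under that scaling 9 sterol genes were called, 8 lower and 1 higher, with Mvd, Sqle, Lss and Srebf2 added among the lower and Npc1 lost.

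**Figure D1:**
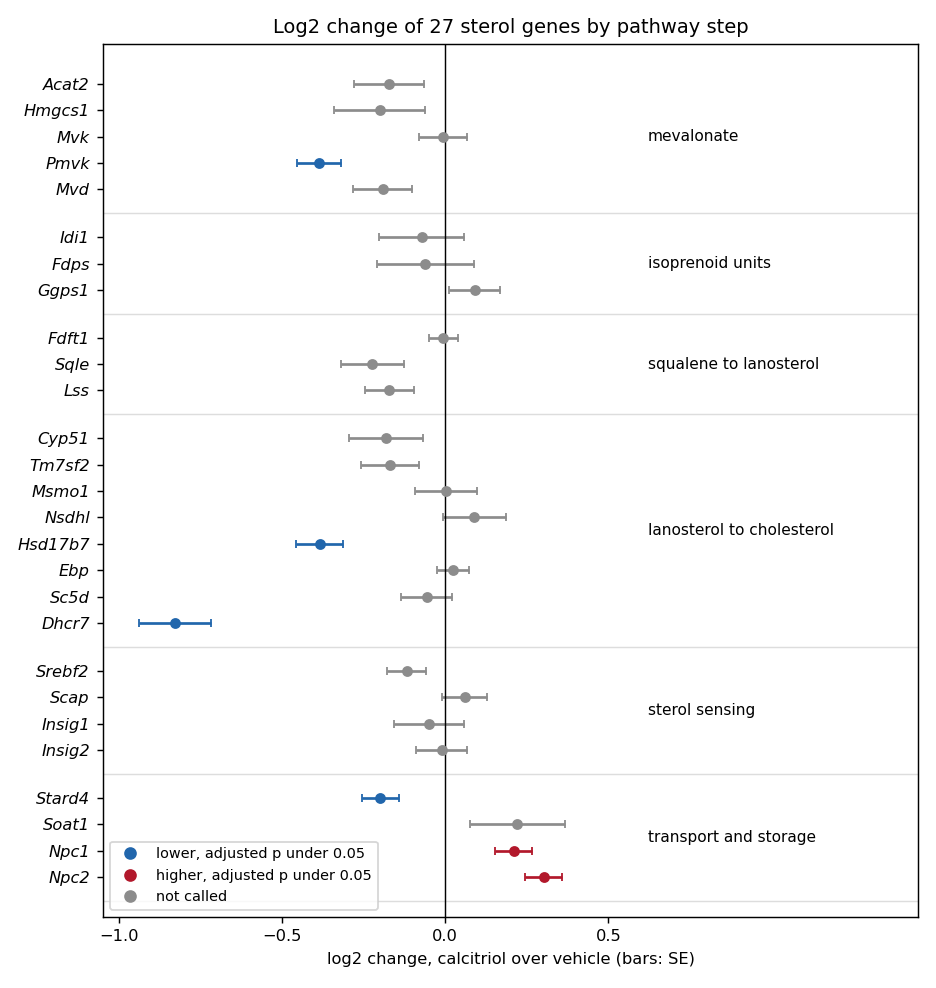
Log2 change of each sterol gene (horizontal axis, calcitriol over vehicle, bars 1 SE from the edgeR fit to 22 libraries), grouped by pathway step. The 3 called enzymes lie left of 0, as does Stard4, and Npc1 and Npc2 lie right of it, while most other genes lie within 0.25 of 0.

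Before treatment is considered, the levels of the sterol genes per length already differed widely. With CPM divided by kilobases of merged exons, vehicle levels ran from 102 ± 12.9 CPM per kilobase for Npc2 (SD, n = 11) to 4.09 ± 0.885 for Idi1. Npc2, the soluble lysosomal protein that binds cholesterol, stood above every other gene, and its lowest vehicle library did not reach down to the highest of Cyp51, next in order. Cyp51 (57.8 ± 9.65), Hmgcs1 (56.1 ± 13.1), Insig1 (54.8 ± 10.6) and Mvd (52.2 ± 8.37) followed with ranges that overlapped. The lowest 5 genes, Tm7sf2, Npc1, Dhcr7, Fdps and Idi1, lay between 4.39 and 4.09 CPM per kilobase, and each overlapped the next in its range. Insig2, at 5.92 ± 0.621, lay far under Insig1, and its lowest vehicle library lay above the highest of Tm7sf2. Exons of all annotated transcripts were merged, so a gene with many long or rare transcripts has its level per length understated.

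**Figure D2:**
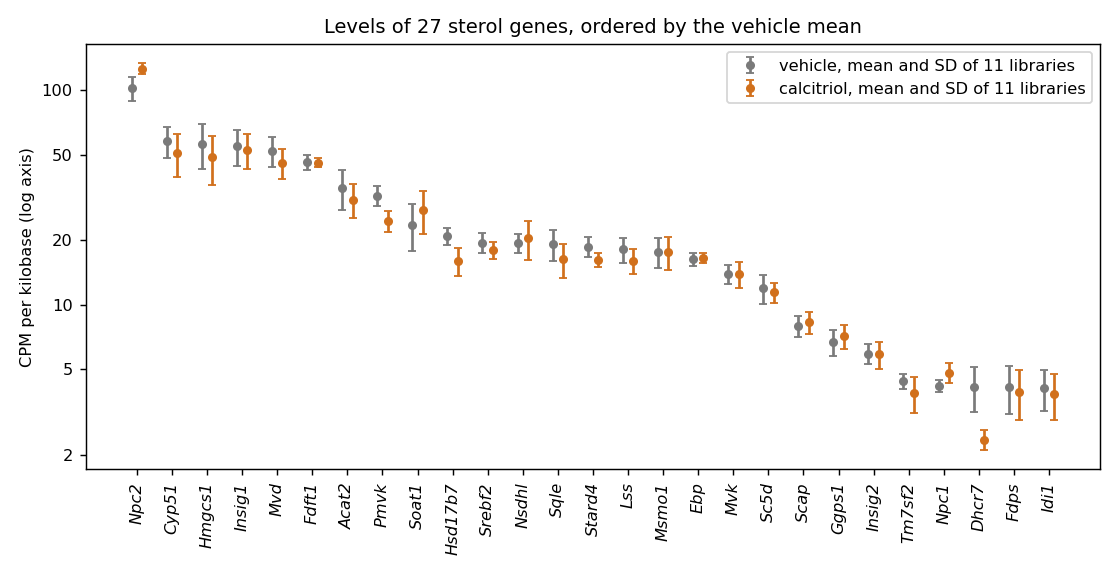
CPM per kilobase of merged exons (vertical log axis) for each of the 27 genes, as mean and SD over 11 vehicle and 11 calcitriol libraries, ordered by the vehicle mean. Npc2 stands at the top at 102 CPM per kilobase and Idi1 at the end at 4.09, and the groups lie close together for most genes, with the widest gap at Dhcr7.

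Some counts are less certain. Acat2 has a near copy, Acat3, with 97.7% identity over 1477 aligned bases, which held 598 counts over all libraries. A stretch of 684 bases of Idi1 is shared without mismatch with the pseudogene Gm13502, which held 18 counts. Fdft1 overlaps exons of Ctsb on the opposite strand over 774 bases, and Tm7sf2 overlaps Vps51 on the same strand over 532 bases. Npc1, with 9653 counts, overlaps Rmc1, with 14158, over 511 bases and Cyp51 overlaps Akap9 over 166, both on the opposite strand. Fdps overlaps Gm43738 on the same strand over 1124 bases, 26.7% of its exons, the largest share found. How reads in shared exons were assigned is not stated, so the level of Fdps per length may be understated. The strand setting of the counting is not given in the sources used here.

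Dhcr7 showed the largest change of the set. It encodes the reductase that turns 7-dehydrocholesterol into cholesterol, and lies on chromosome 7 from 143823145 to 143848410 (GRCm38, ENSMUSG00000058454). Its level ran from 15.02 through a median of 24.6 to 31.8 CPM in vehicle libraries, and from 11.6 through 13.8 to 16.8 CPM in calcitriol libraries. All but 1 of the 11 calcitriol libraries lay below the lowest vehicle library, and the groups met only where calcitriol replicate 6 stood above vehicle replicate 3. The mean fell from 24.1 ± 5.65 to 13.7 ± 1.46 CPM (SD, n = 11), which on the log2 scale was -0.83 ± 0.11 (edgeR, adjusted p = 1.17e-06). The vehicle libraries were unequal: replicates 1 to 4 lay between 15.02 and 19.6 CPM and the other 7 between 24.3 and 31.8. The coefficient of variation was 23.5% in vehicle and 10.7% in calcitriol libraries.

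Pmvk, the kinase that phosphorylates phosphomevalonate, lies on chromosome 3 from 89454541 to 89469013. It ran from 44.3 through 58.1 to 61.2 CPM in vehicle libraries and from 34.8 through 41.3 to 50.1 CPM with calcitriol. The groups overlapped through vehicle replicates 3 and 4, at 44.3 and 44.9 CPM, and 6 of 11 calcitriol libraries lay below all vehicle libraries. On the log2 scale it stood at -0.39 ± 0.07 (edgeR, adjusted p = 5.90e-05). Hsd17b7, the keto-sterol reductase of the demethylation stage, lies on chromosome 1 from 169949535 to 169969241. It ran from 88.0 through 105 to 120 CPM in vehicle and from 62.5 through 77.6 to 99.6 CPM in calcitriol libraries. Here too 6 of 11 calcitriol libraries lay below every vehicle library, and the log2 change was -0.38 ± 0.07 (edgeR, adjusted p = 0.000148).

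Stard4, a cytosolic carrier that moves sterol between membranes, lies on chromosome 18. It ran from 82.1 through 105 to 126 CPM in vehicle and from 78.3 through 90.2 to 102 CPM in calcitriol libraries. The ranges overlapped between 82.1 and 102 CPM, and 1 calcitriol library lay below all vehicle libraries. The log2 change was -0.20 ± 0.06 (edgeR, adjusted p = 0.00887), and the call was lost (adjusted p = 0.170) when libraries were chained into sets with their most similar partner and summed, at an unchanged size of -0.20.

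The risers were the lysosomal exporters. Npc1, the membrane protein that passes cholesterol out of the late endosome and lysosome, lies on chromosome 18 and ran from 40.7 through 47.8 to 51.8 CPM in vehicle and from 47.4 through 52.6 to 65.2 CPM in calcitriol libraries. Above all vehicle libraries lay 7 of 11 calcitriol libraries, with replicates 3 and 4 highest. Its log2 change was 0.21 ± 0.06 (edgeR, adjusted p = 0.00586). The call was lost with plain library totals as scaling (0.14, adjusted p = 0.0501) and with the chained sets summed (0.24, adjusted p = 0.127). Npc2, which hands cholesterol to Npc1, lies on chromosome 12 from 84754562 to 84773152. It ran from 466 through 542 to 702 CPM in vehicle and from 619 through 682 to 767 CPM in calcitriol libraries. Vehicle replicates 3 and 4 stood apart at 702 and 631 CPM, and the other 9 vehicle libraries lay below every calcitriol library. Its log2 change was 0.30 ± 0.06 (edgeR, adjusted p = 0.000176). In bulk RNA, a change in the share of cells that make a transcript and a change in the RNA per cell cannot be told apart.

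**Figure D3:**
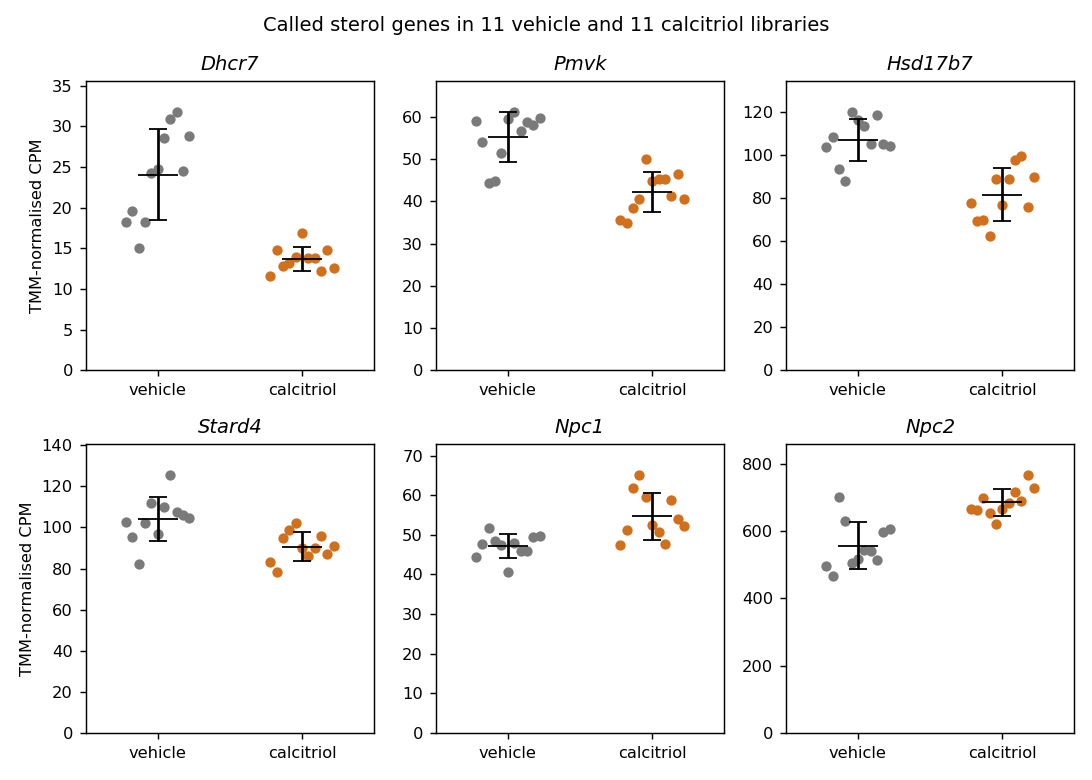
TMM-normalised CPM (vertical axis from 0) of the 6 called sterol genes in each of 11 vehicle and 11 calcitriol libraries (points), with mean and SD (black). Dhcr7 shows the least overlap between the groups and a wide vehicle spread, and Npc2 the vehicle replicates at 702 and 631 CPM within the calcitriol range.

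Promoter windows were compared because most of these genes answer to SREBP-2, which acts beside the factor NF-Y. RefSeq windows of build GRCm38.p6, running from 250 bases before to 50 after a gene's start, were available for 22 of the 27 genes in 28 windows. Fdps, Fdft1, Sqle, Stard4 and Npc1 had none. The NF-Y box CCAAT, read on both strands, was present in 20 of 28 windows (71.4%) and in 20 of 22 genes, against 37.4% of 32851 windows of all genes. The sterol regulatory element core TCACNCCAC was found in 1 window, that of Hmgcs1, or 3.57% against 1.24% of all windows. Only exact matches to this core were searched, so other forms of the element would be missed, in the called genes too. The nuclear receptor hexamer AGGTCA was found in 5 windows of 3 genes (17.9%, against 16.3% of all windows), with windows of Dhcr7 that overlap and share a match. AGTTCA was found in 3.57% against 14.0%, and GGTTCA in 7.14% against 10.4%. None of the 28 windows held any of these hexamers as a direct repeat spaced by 3 bases. Over all 32851 windows, such repeats of AGGTCA and of GGTTCA were found in 2 each and of AGTTCA in 0. Exact repeats are so rare that their absence from 28 windows says nothing about the sterol genes. Imperfect repeats were not searched. The 250 bases before the start are shown for Hmgcs1, which holds the sterol element, for the called enzymes, whose windows differ in these motifs, and for Npc2, which rose, taking the window with the lowest start where a gene has several. Capitals mark TCACNCCAC, CCAAT and AGGTCA on either strand, so that ATTGG is CCAAT and TGACCT is AGGTCA on the opposite strand.
Hmgcs1, chr13:119690101-119690350, plus strand: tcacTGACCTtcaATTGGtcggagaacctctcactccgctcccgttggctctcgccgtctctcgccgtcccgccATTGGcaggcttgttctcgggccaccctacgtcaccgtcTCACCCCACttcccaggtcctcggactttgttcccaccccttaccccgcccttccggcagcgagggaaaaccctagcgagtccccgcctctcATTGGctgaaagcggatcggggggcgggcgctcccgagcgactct
Dhcr7, chr7:143822917-143823166, plus strand: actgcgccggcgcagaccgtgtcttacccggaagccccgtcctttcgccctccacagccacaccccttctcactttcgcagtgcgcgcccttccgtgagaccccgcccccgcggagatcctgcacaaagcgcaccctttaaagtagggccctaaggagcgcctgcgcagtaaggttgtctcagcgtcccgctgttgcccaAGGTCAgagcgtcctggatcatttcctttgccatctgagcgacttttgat
Pmvk, chr3:89454291-89454540, plus strand: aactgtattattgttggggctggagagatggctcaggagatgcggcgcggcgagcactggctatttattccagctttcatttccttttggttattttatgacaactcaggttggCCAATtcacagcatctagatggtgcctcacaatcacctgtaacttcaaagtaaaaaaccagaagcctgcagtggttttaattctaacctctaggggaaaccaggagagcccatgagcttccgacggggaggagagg
Hsd17b7, chr1:169969206-169969455, minus strand: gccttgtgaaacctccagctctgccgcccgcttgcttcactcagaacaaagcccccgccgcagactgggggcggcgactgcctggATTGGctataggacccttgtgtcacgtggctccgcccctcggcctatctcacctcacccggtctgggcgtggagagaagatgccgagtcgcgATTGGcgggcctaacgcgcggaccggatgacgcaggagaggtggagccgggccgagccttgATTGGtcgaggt
Npc2, chr12:84773113-84773362, minus strand: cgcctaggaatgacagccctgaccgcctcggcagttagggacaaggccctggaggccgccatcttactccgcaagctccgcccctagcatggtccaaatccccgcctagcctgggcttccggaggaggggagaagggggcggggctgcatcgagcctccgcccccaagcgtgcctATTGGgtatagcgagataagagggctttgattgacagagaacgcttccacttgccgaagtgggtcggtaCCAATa
In the stretches shown, Hmgcs1 carried 3 CCAAT boxes beside the sterol element and 1 AGGTCA, Hsd17b7 carried 3 CCAAT boxes, Npc2 carried 2 and Pmvk 1. The Dhcr7 stretch carried 1 AGGTCA and no CCAAT, although another of its 3 windows, from 143829964 to 143830263, held CCAAT. A match is only a run of letters, and no binding was measured.

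Among the other mevalonate enzymes no call was made, and all 4 lay at or below 0. Mvd, the decarboxylase that ends the mevalonate stage, ran from 70.3 through 100.5 to 123 CPM in vehicle and from 63.8 through 86.1 to 111 CPM in calcitriol libraries, for a log2 change of -0.19 ± 0.09 by edgeR (adjusted p = 0.111). Acat2, the thiolase that opens the route, ran from 70.8 through 82.0 to 127 CPM and from 64.2 through 71.2 to 103 CPM, with 4 of 11 calcitriol libraries below all vehicle libraries (-0.17 ± 0.11, adjusted p = 0.241). Hmgcs1, which makes HMG-CoA, was at -0.20 ± 0.14 (adjusted p = 0.301) and mevalonate kinase, Mvk, whose libraries lay between 30.6 and 46.6 CPM, at -0.01 ± 0.07 (adjusted p = 0.957). The ranges of both groups overlapped in each of these 4 genes, as they did in Pmvk, the 1 gene of 5 in this stage that passed the test. Of the isoprenoid enzymes, Idi1, Fdps and Ggps1 lay at -0.07 ± 0.13, -0.06 ± 0.15 and 0.09 ± 0.08, and 0 of 3 were called. Idi1 lay between 9.15 and 19.5 CPM over all libraries, Fdps between 8.56 and 27.4 and Ggps1 between 24.6 and 40.8.

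From squalene to lanosterol, 0 of 3 enzymes were called. Sqle, the epoxidase that commits squalene to sterols, ran from 88.8 through 95.8 to 142 CPM in vehicle and from 70.6 through 88.6 to 126 CPM in calcitriol libraries. In 6 of 11 calcitriol libraries it lay below every vehicle library, yet the upper parts of the ranges overlapped, and the log2 change was -0.22 ± 0.10 (edgeR, adjusted p = 0.0791). Lss, the cyclase that forms lanosterol, ran from 156 through 200.4 to 254 CPM and from 140 through 173 to 213 CPM (-0.17 ± 0.08, adjusted p = 0.0841). Fdft1, squalene synthase, was at 195 ± 14.8 and 194 ± 9.75 CPM (SD, n = 11), with a log2 change of -0.01 ± 0.04 and the smallest standard error of the set. Sqle passed the threshold without calcitriol replicate 9 (adjusted p = 0.0140) and Lss without calcitriol replicate 9 (0.0328) or vehicle replicate 4 (0.0415), and narrowly without calcitriol replicate 5. Mvd did so without vehicle replicate 4 (0.0400) or calcitriol replicate 6 (0.0389).

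Of the 8 enzymes from lanosterol to cholesterol, 2 fell and 6 were not called, a share called of 25% against 31.5% of all genes tested. Tm7sf2, a reductase that acts after the demethylase Cyp51, ran from 17.1 through 19.8 to 21.8 CPM in vehicle and from 12.4 through 17.2 to 22.5 CPM in calcitriol libraries. Calcitriol libraries lay both below and above all vehicle libraries, 5 and 1 in number (-0.17 ± 0.09, edgeR, adjusted p = 0.157). Cyp51 itself lay between 164 and 326 CPM over all libraries, at -0.18 ± 0.11 (adjusted p = 0.245). Msmo1, the oxidase that removes methyl groups, lay at 0.00 ± 0.09, the dehydrogenase Nsdhl at 0.09 ± 0.10, the isomerase Ebp at 0.02 ± 0.05 and the desaturase Sc5d at -0.06 ± 0.08. Over all libraries, Msmo1 ran from 81.5 to 142 CPM, Nsdhl from 36.9 to 75.6, Ebp from 33.6 to 42.1 and Sc5d from 44.5 to 74.4.

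The sensing genes were not called. Srebf2 ran from 116 through 139 to 159 CPM in vehicle and from 104 through 127 to 146 CPM in calcitriol libraries, with ranges that overlapped over most of their width (-0.12 ± 0.06, edgeR, adjusted p = 0.142). Insig1, itself a well-known SREBP-2 target, ran from 128 through 161 to 237 CPM and from 115 through 163 to 205 CPM (-0.05 ± 0.11, adjusted p = 0.770). Insig2 ran from 17.7 through 20.1 to 25.5 CPM and from 16.0 through 20.6 to 26.0 CPM (-0.01 ± 0.08, adjusted p = 0.934). Scap ran from 49.96 through 56.8 to 70.8 CPM and from 50.2 through 63.3 to 73.0 CPM (0.06 ± 0.07, adjusted p = 0.564). Insig1 had the widest spread of the 4, with a coefficient of variation of 19.3% in vehicle libraries. Soat1, which esterifies cholesterol for storage, was at 232 ± 57.2 and 270 ± 61.7 CPM (SD, n = 11) and was not called either (0.22 ± 0.15, adjusted p = 0.275).

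The summed level of the synthesis enzymes varied between libraries of the same group. The 19 enzymes summed to between 1509 and 2228 CPM in vehicle and between 1293 and 2003 CPM in calcitriol libraries, with means of 1761 ± 235 and 1585 ± 230 (SD, n = 11). Replicates 5, 6 and 9 were the highest in vehicle, at 1985, 2053 and 2228 CPM, and the libraries with these numbers were also the highest in calcitriol, at 1829, 1805 and 2003 CPM. The numbers follow accession order and pair nothing by themselves, and these libraries were singled out after their values were seen. They held the highest 3 values of their group for 9 of the 27 genes in vehicle (Acat2, Hmgcs1, Sqle, Cyp51, Msmo1, Nsdhl, Hsd17b7, Sc5d and Insig1) and for 7 in calcitriol libraries. Over 8705 tested genes that averaged 10 CPM or more, the same held for 7.29% in vehicle and 4.76% in calcitriol libraries. Because the libraries were picked by the sum of the enzymes, this contrast is a description and no test.

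Hmgcs1 shows the width of this spread: it ran from 196 CPM in vehicle replicate 3 to 388 in replicate 9, and from 145 in calcitriol replicate 3 to 344 in replicate 9. Soat1 ran the other way, with its lowest 3 values in replicates 5, 6 and 9 of each group, at 166, 147 and 149 CPM in vehicle and 194, 173 and 191 CPM in calcitriol libraries. In the other 8 libraries of each group it lay between 239 and 322 CPM and between 261 and 372 CPM. Dhcr7 was highest in vehicle replicate 9, at 31.8 CPM, but did not stand out in vehicle replicates 5 and 6. There it was at 24.3 and 24.7 CPM, near its vehicle median of 24.6 and below replicates 7, 8 and 11 at 28.6, 30.9 and 28.8. In calcitriol replicate 9, where Hmgcs1 was highest, Dhcr7 was at 12.2 CPM, the second lowest of its group. The median coefficient of variation of the sterol genes was 13.3% in vehicle and 14.8% in calcitriol libraries, against 11.3% and 12.1% for the 8705 genes.

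**Figure D4:**
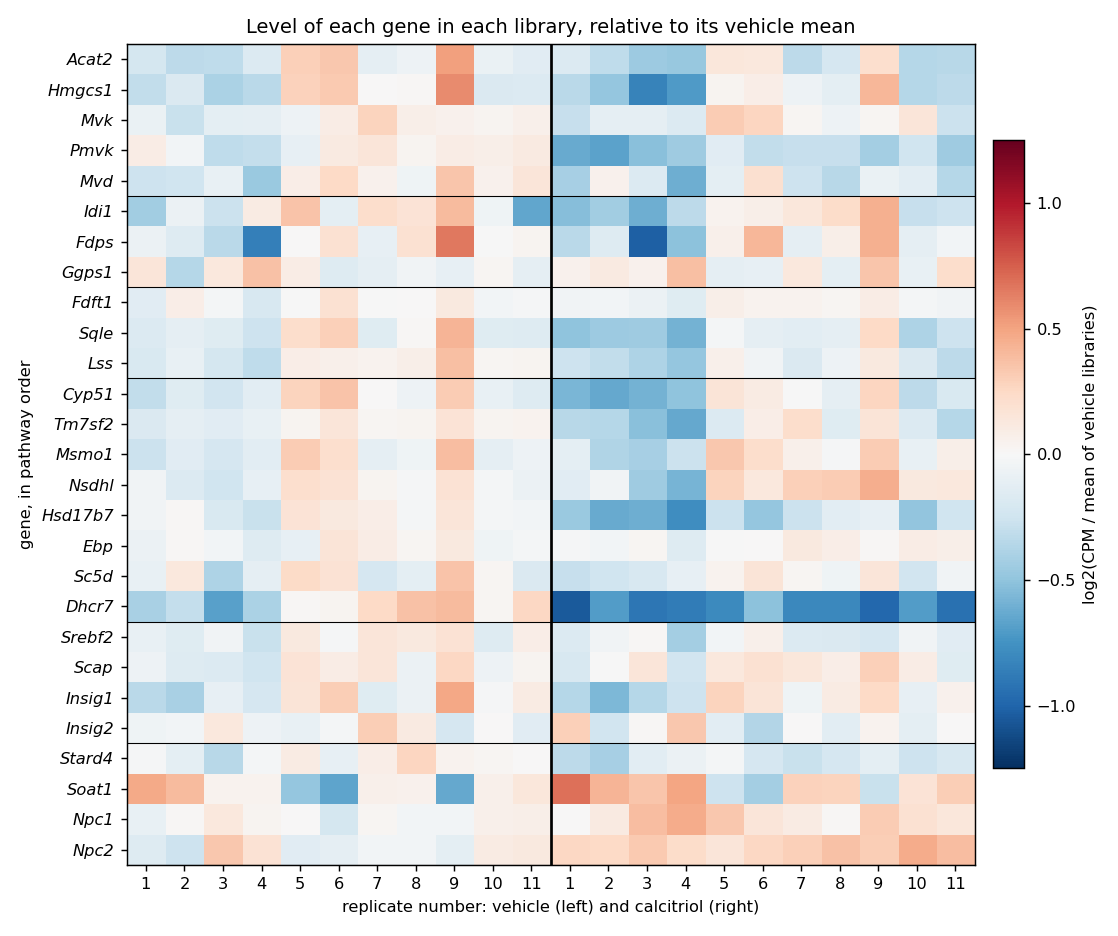
Heat map of log2(CPM over the mean of the vehicle libraries) for the 27 genes in pathway order (rows) and the 22 libraries (columns, vehicle left and calcitriol right). Columns 5, 6 and 9 are red for most enzymes in vehicle and blue for Soat1 in both groups. With calcitriol they are red, in part faintly, for Acat2, Hmgcs1, Mvk, Idi1, Fdps, Fdft1, Cyp51, Msmo1, Nsdhl and Sc5d. The Dhcr7 row is blue across all calcitriol libraries.

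**Figure D5:**
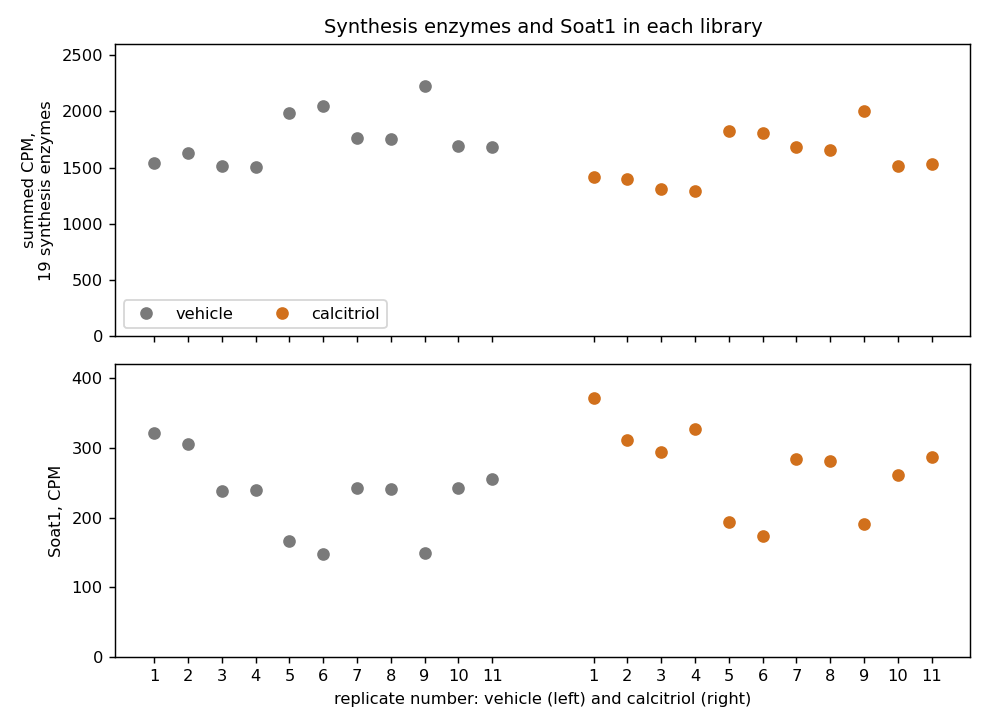
Summed CPM of the 19 synthesis enzymes (top) and CPM of Soat1 (bottom) in each library, vehicle left and calcitriol right, both axes from 0. Replicates 5, 6 and 9 of each group are highest in the upper and lowest in the lower panel, and the groups overlap in both.

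With 5 surrogate variables estimated from the data, which take up differences between libraries other than treatment, 15 of the 27 sterol genes were called, 12 lower and 3 higher, while 46.5% of all genes tested were called by this fit. It contained all 6 genes called without covariates and added Acat2, Hmgcs1, Mvd, Sqle, Lss, Cyp51, Tm7sf2 and Srebf2 among the lower and Soat1 among the higher. Their sizes stayed small, with Hmgcs1 at -0.17, Sqle at -0.21, Cyp51 at -0.18, Srebf2 at -0.12 and Soat1 at 0.22 on the log2 scale. Surrogate variables were fitted to the same libraries, and what they stand for is not given by the labels.

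Other genes of sterol and isoprenoid metabolism were read from the same fit. Of 54 listed, 49 were tested, 8 rose and 7 fell. The share called, 30.6%, was close to the 31.5% of all genes tested, and with libraries scaled by their totals the split was 5 higher and 13 lower. None of the 14 genes of prenylation, ubiquinone and dolichol synthesis was called, with log2 changes between -0.24 and 0.13. Among 12 genes of SREBP processing and sterol-regulated degradation, 2 rose and 3 fell, a share called of 41.7%. Erlin1, which encodes a cholesterol-binding protein of the endoplasmic reticulum, fell from 43.6 ± 3.82 to 31.4 ± 4.11 CPM (SD, n = 11), and 10 of 11 calcitriol libraries lay below all vehicle libraries (log2 change -0.47 ± 0.07, edgeR, adjusted p = 3.82e-06). Its partner Erlin2 fell by 0.28 on the log2 scale, and Mbtps1, the Golgi protease that makes the first cut in SREBP-2, rose by 0.23.

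In the list of sterol movement, uptake and storage, 5 of 17 genes rose and 3 fell. The share called was 47.1%, against 31.5% of all genes tested. Gramd1b, a carrier that takes cholesterol from the plasma membrane to the endoplasmic reticulum, ran from 99.1 through 114 to 140 CPM in vehicle and from 65.8 through 75.3 to 84.7 CPM in calcitriol libraries. The groups did not overlap, with 11 of 11 calcitriol libraries lower (-0.64 ± 0.06, edgeR, adjusted p = 1.06e-09). Only this gene of the 49 tested had groups free of overlap, against 4.36% of all genes tested. Tmem97, which encodes a protein that binds Npc1, fell by 0.39 on the log2 scale. Scarb2, a lysosomal membrane protein, rose by 0.25, Osbpl9, an oxysterol-binding protein relative, by 0.52 and Nceh1, a cholesteryl ester hydrolase, by 0.45. Among the side enzymes, of which 2 were tested, Lbr, a nuclear envelope protein with the same sterol reductase activity as Tm7sf2, rose from 224 ± 21.9 to 281 ± 27.6 CPM (0.33 ± 0.06, edgeR, adjusted p = 9.20e-05), with 9 of 11 calcitriol libraries above all vehicle libraries. Abca1, which exports cholesterol from the cell, fell from 39.2 ± 10.7 to 23.6 ± 2.72 CPM (-0.73 ± 0.12, edgeR, adjusted p = 2.60e-05), the only call among the 4 tested genes of liver X receptors and efflux. Of these 10 named genes, Lbr, Scarb2, Nceh1, Erlin2 and Mbtps1 lost their calls with the chained sets summed (adjusted p = 0.0885, 0.0932, 0.0941, 0.140 and 0.214). Their log2 changes in that setting were 0.30, 0.24, 0.42, -0.26 and 0.18, in the same order.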

How the data were processed

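The authors deposited raw counts, with Ensembl genes in rows and libraries in columns whose names match the samples. The submitters' processing notes list STAR 2.7.10a, HTSeq 0.13.5 and build GRCm38, and no settings are stated in the sources used here. A stranded total RNA kit was used, per the labels' protocols. Symbols, coordinates and exons came from GENCODE M21 on that build, promoters from RefSeq (GRCm38.p6).

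Genes were filtered with filterByExpr, scaled by TMM and tested with edgeR 4.0.16 in R 4.3.3 (quasi-likelihood, robust, no covariate) over all 11905 genes. The fit was also run on simulated counts whose libraries were drawn independently of each other. That run cannot show the error rate where libraries resemble each other. Alternatives used DESeq2 1.42.0, limma 3.58.1 and sva 3.50.0, other scalings and filters, leaving out libraries, and summing similar libraries within a group (7 sets per group of mutual best partners, or 4 sets per group when chained, a setting added after the data were seen). Near copies were sought by blastn among transcripts at 95% identity over 200 bases. The genes, lists and settings were chosen with earlier results of these data known. Every member is described, with range and median per group for called genes, sensing genes and the 6 uncalled genes with the smallest p, and the 10 called genes with the smallest p of the other list are named; Cyp24a1 and Vdr check that calcitriol acted. Some genes of the pathway are not reported here.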

Additional observations from a re-analysis of the deposited data

How the results depend on the processing

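The 6 called sterol genes remained called under 34 of 36 alternatives, the exceptions being plain library totals (5 of the 6) and chained sets of similar libraries summed (4 of the 6). Library totals gave 9 called sterol genes in all. Leaving out 1 library gave from 6 to 8 called sterol genes, from 15 to 17 called genes of the other list and from 3467 to 3806 over all genes. With chained sets summed, 1439 genes were called over all and 5 of the other list, against 3755 and 15, with 4 samples per group in place of 11. With surrogate variables 15 sterol genes were called against 6, and the cause was not tested. Without replicates 1 and 2 of both groups, set apart in an earlier analysis of these data, 6 sterol genes were called. Of 1332 values of 37 named genes under the alternatives, 20 gained a call, 8 lost one and 0 called values changed sign. Uncalled genes changed sign in 52 values, over 10 genes, at most 0.0644 from 0 on the log2 scale. No paired analysis was run, because the labels do not say which libraries, if any, are matched, and the numbers used here follow accession order. If libraries are matched across the groups, the unpaired test keeps the spread they share in its error. Small changes may then have been missed. Depth limits the genes with few counts most, such as Idi1 with 1356 counts over the vehicle and 1298 over the calcitriol libraries.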
